A study of Homo sapiens with 4 samples.

Results

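The semaphorins, plexins and neuropilins formed a set of 31 genes among the 19475 gene symbols measured by mRNA-seq in SKOV3, a long-established ovarian cancer cell line of human origin. They were chosen by a rule on symbols alone, as every semaphorin of classes 3 to 7, every plexin of families A to D and both neuropilins. The rule used no measured value, but it was set with earlier results of these data known. Of these, 20 were semaphorins, which are ligands, and 11 were receptors (9 plexins and 2 neuropilins). Levels were given as FPKM, that is, tags scaled to transcript length and to the total tags of the library, and each gene was read from the listed transcript with the highest mean FPKM.

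The 4 libraries were 2 of SKOV3 cells from a tissue culture plate (TCP), labelled day 0, and 2 of SKOV3 tumor spheroids from a plate coated with polymer X (polyX), labelled day 8. All came from this 1 cell line, and the labels name no further agent or genetic change. The labels give a single growth protocol with serum replacement for all samples, whereas the study's methods keep the cell line in fetal bovine serum, so the medium of the TCP cells is not settled. Substrate, spheroid shape, time in culture and possibly medium therefore changed together and cannot be told apart. The labels do not say whether replicates came from separate cultures, so p-values measure only the spread between these libraries.

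Semaphorins are a large family of guidance cues that share an extracellular sema domain. Class 3 members are secreted, and most of them need a neuropilin to bind the ligand while a plexin carries the signal into the cell. Class 4, 5 and 6 members span the membrane, class 7 is anchored to it by a lipid, and these mostly bind plexins directly. The inner part of plexins acts on small GTPases, through which it loosens integrin adhesion and the actin skeleton. First described in growing axons, the system is also known from blood vessels, immune cells, epithelia and tumors, where neuropilins are in addition co-receptors for vascular endothelial growth factors.

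The libraries held 38416000 to 44918000 tags, so that 3 tags, taken as the detection floor, correspond to an FPKM of 0.0334 to 0.0390 for a transcript of 2000 bases. Even tag numbers made up 51.2% to 56.9% of the low values read, so some tags may be mates of a pair, and a count of tags may then overstate the number of fragments. Markers of SKOV3 cells were present in each library, where the summed FPKM of 7 epithelial and SKOV3 markers was 640 to 654 on TCP and 1206 to 1256 on polymer X. The markers did not move alike. Mean ERBB2 rose from 202 to 887 and PAX8 from 49.7 to 105. In contrast, mean KRT8 fell from 265 to 144, KRT18 from 122 to 89.5 and KRT7 from 7.95 to 4.30. Each of these had an adjusted p under 0.05. CDH1 and KRT19 stayed under an FPKM of 1 and were not tested. Their means were higher on polymer X, 0.0315 and 0.362 for CDH1 and 0.3895 and 0.6945 for KRT19 on TCP and polymer X. Markers of cells known for semaphorin signaling were low, since the summed FPKM of 5 neuronal markers was 1.48 to 1.77 on TCP and 3.08 to 3.68 on polymer X, mostly from SYT1. The sum of 5 endothelial markers was 0.14 to 0.197 on TCP and 0.518 to 0.772 on polymer X, with PECAM1 at 0 in both TCP libraries and at 0.573 and 0.458 on polymer X. The sum of 5 leukocyte markers was 0.105 to 0.171 on TCP and 0.839 to 1.03 on polymer X, with PTPRC at 0.005 and 0 on TCP and 0.468 and 0.530 on polymer X, and CD3E at 0 in all 4 libraries. For 4 fibroblast markers the sum was 8.40 to 8.70 on TCP and 10.8 to 12.3 on polymer X, with mean COL1A1 falling from 8.34 to 3.79 and DCN rising from 0.0125 to 6.73. The part of these shifts in the results was not tested, and in bulk RNA fewer expressing cells and less RNA per cell cannot be told apart.

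On polymer X, most semaphorin genes with a measurable level were higher than on TCP, led by the secreted ligands SEMA3B and SEMA3A and the receptor PLXNA3, whereas SEMA7A, NRP2 and SEMA3C were lower. Of the 31 genes, 21 had 2 or more libraries with an FPKM of 1 or higher and were tested with limma on log2(FPKM + 1), and 10 were not tested. A gene was called where its adjusted p was under 0.05 and it changed by 1 or more, in either direction, on the log2 scale. By this rule 6 of the 21 were called higher and 3 lower, beside 10.7% of the 11964 genes tested in all called higher and 9.45% called lower. With no minimum fold change, 14 were higher and 4 lower at an adjusted p under 0.05, beside 37.4% and 43.6% of all genes tested, and SEMA4F, PLXND1 and NRP1 missed the threshold. SEMA4G, SEMA6A and PLXNB3 reached an FPKM of 1 on polymer X alone, and PLXNB1 also passed the filter only with the polyX libraries. These genes were tested because they were high on polymer X, so their rise lends no support to these or later counts and medians.

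For 15 of the 21 tested genes each polyX library exceeded each TCP library, and for 4 each lay below, where 41.9% and 48.4% of all tested genes did so, and only NRP1 and PLXND1 overlapped between the groups. The median log2 fold change was 0.79 over the 21 tested genes, 0.53 over all 31 genes without the filter and -0.06 over all genes tested. With 2 libraries a group, an exact permutation test of a single gene cannot give a two-sided p under 0.333, so all adjusted p-values come from limma, which shares its estimate of the spread across genes.

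**Figure D1:**
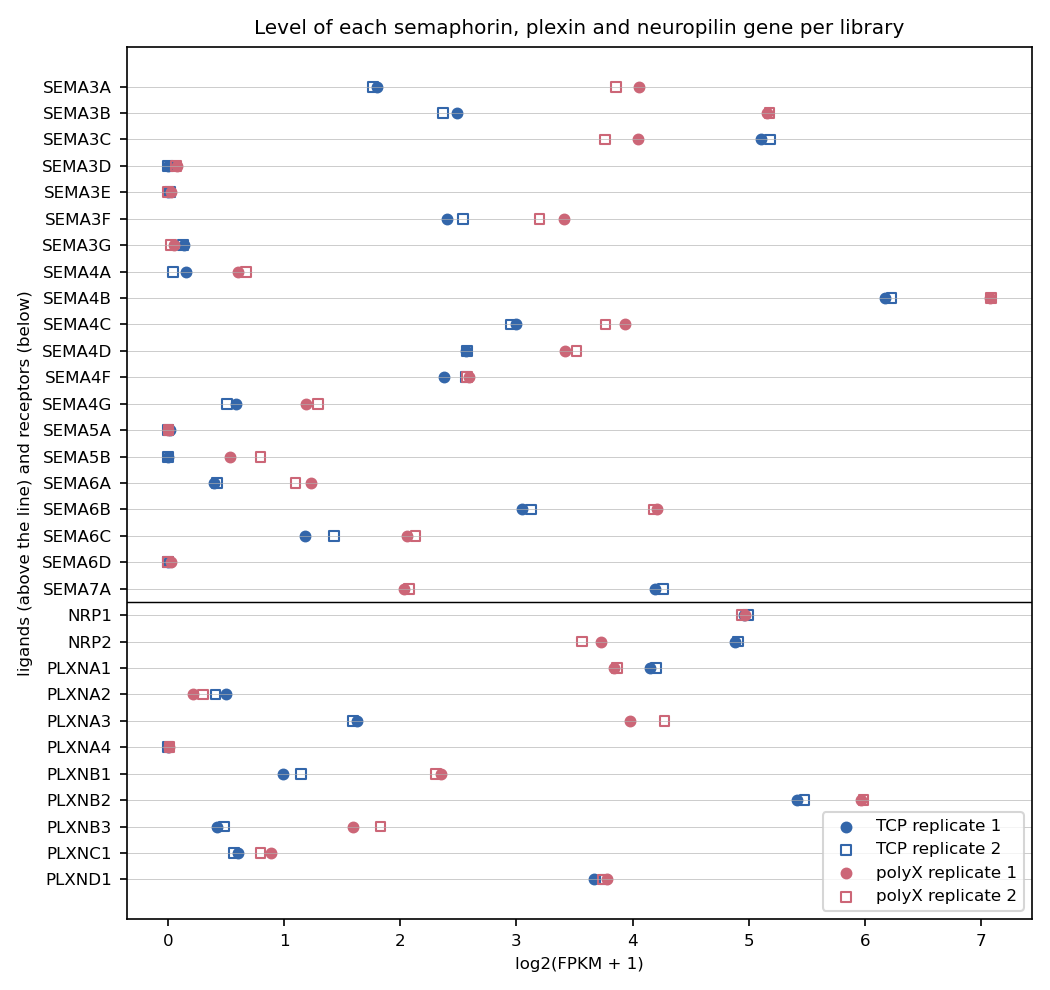
Level of each of the 31 genes in each library as log2(FPKM + 1), with blue for TCP, red for polyX, filled circles for replicate 1 and open squares for replicate 2. The blue and red marks lie far apart for SEMA3A, SEMA3B, SEMA7A, NRP2 and PLXNA3 and coincide for NRP1 and PLXND1.

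Among the class 3 semaphorins, the secreted ligands, 4 of 7 were tested, of which 2 were called higher and 1 lower. Over all genes tested, 10.7% were called higher and 9.45% lower. SEMA3F rose by less than the fold minimum. SEMA3B, a secreted semaphorin from a chromosome 3 region often lost in tumors, had FPKM values of 4.60 and 4.16 on TCP and 34.7 and 35.2 on polymer X. Its mean rose 7.98-fold, with a log2 fold change of 2.74 ± 0.06 (SE, n = 2 per group, adjusted p = 1.87e-09), the largest increase of the tested ligands and receptors on the scale of log2(FPKM + 1), while PLXNA3 rose slightly more as a ratio of means. The values came from transcript NM_001290061 (hg19, chromosome 3, 50306593 to 50314602, plus strand), and all 6 listed SEMA3B transcripts changed alike, by 2.70 to 2.74.

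SEMA3A, the collapsin that repels axons through NRP1 and an A-type plexin, had FPKM values of 2.484 and 2.396 on TCP and 15.6 and 13.5 on polymer X. The lowest polyX library was thus several times above the highest TCP library, and the mean rose 5.97-fold (log2 fold change 2.17 ± 0.08, SE, adjusted p = 1.73e-08). SEMA3A was listed with 1 transcript, NM_006080 (chromosome 7, 83587659 to 83824217, minus strand).

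SEMA3C, a secreted ligand known from septation of the cardiac outflow tract, went the other way. Its FPKM was 33.5 and 35.3 on TCP and 15.6 and 12.6 on polymer X, a 2.44-fold decrease (log2 fold change -1.24 ± 0.09, SE, adjusted p = 1.15e-06). As a result, the order of the secreted ligands changed. The ratio of SEMA3C to SEMA3A was 14.1 ± 0.88 on TCP and 0.964 ± 0.044 on polymer X (SD, n = 2), and that of SEMA3C to SEMA3B was 7.88 ± 0.86 and 0.403 ± 0.064. SEMA3F, a ligand that prefers NRP2, had 4.29 and 4.83 on TCP and 9.63 and 8.18 on polymer X, with both polyX libraries higher (log2 fold change 0.83 ± 0.09, SE, adjusted p = 1.71e-05).

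The class 3 genes below the filter had few tags. SEMA3D had 0 tags in both TCP libraries and 14 and 13 tags on polymer X, which is at least 4.61-fold higher with the floor set at 3 tags per library. SEMA3E, a ligand that can bind PLXND1 without a neuropilin, had 0 to 4 tags in each library and gives no fold. SEMA3G, known from endothelium, was listed at 0.10 and 0.094 on TCP and 0.040 and 0.020 on polymer X. That is 19 and 21 tags on TCP and 8 and 4 on polymer X, above the floor, with each polyX library below each TCP library.

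Class 4 semaphorins, which span the membrane, were higher on polymer X in 4 of the 5 tested genes, each by less than the fold minimum. By limma 0 of the 5 were called, beside 10.7% of all genes tested called higher and 9.45% called lower. Of the 5, 4 had an adjusted p, and the same number an unadjusted p, under 0.05. At an adjusted p under 0.05, 37.4% of all genes tested were higher and 43.6% lower. SEMA4A was not tested. SEMA4B, the most abundant semaphorin in every library, had FPKM values of 71.3 and 73.9 on TCP and 134.1 and 134.5 on polymer X (log2 fold change 0.88 ± 0.05, SE, adjusted p = 4.54e-07). That is a 1.85-fold higher mean with almost no spread between the polyX libraries.

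SEMA4D, the ligand of PLXNB1 also known as CD100, had 4.92 and 4.96 on TCP and 9.71 and 10.46 on polymer X, 2.04-fold higher on the FPKM scale and 0.90 ± 0.07 (SE) on the log2 scale with the pseudocount (adjusted p = 1.63e-06). SEMA4C, a ligand of PLXNB2, had 6.97 and 6.76 on TCP and 14.3 and 12.6 on polymer X (0.87 ± 0.07, SE, adjusted p = 3.14e-06). For both ligands the groups were separated, and the distance between groups exceeded that between replicates.

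SEMA4G was low, with an FPKM of 0.505 and 0.426 on TCP and 1.28 and 1.45 on polymer X (0.69 ± 0.09, SE, adjusted p = 5.93e-05), and it passed the filter through the polyX libraries alone. In the GENCODE annotation of GRCh38, 18.03% of the bases of a SEMA4G transcript overlap exons of MRPL43 on the opposite strand, and the counting did not use strand, so their tags cannot be told apart. MRPL43 had a far higher FPKM of 19.0 to 21.3 and a log2 fold change of -0.03.

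SEMA4F did not move beyond its spread, with 4.18 and 4.92 on TCP and 5.03 and 4.97 on polymer X (log2 fold change 0.12 ± 0.08, SE, adjusted p = 0.214). SEMA4A, best known from immune cells, was below the filter with 13 and 4 tags on TCP and 62 and 72 tags on polymer X. With all transcripts of a gene summed it passed the filter.

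The class 6 semaphorins, also transmembrane ligands and mostly of A-type plexins, were higher on polymer X in the 3 of 4 tested. Of all genes tested, 37.4% were higher and 43.6% lower at an adjusted p under 0.05. SEMA6A passed the filter through the polyX libraries alone. SEMA6B, a ligand of PLXNA4, had 7.28 and 7.72 on TCP and 17.6 and 17.1 on polymer X, a 2.31-fold higher mean (log2 fold change 1.11 ± 0.06, SE, adjusted p = 2.37e-07). SEMA6C had 1.27 and 1.69 on TCP and 3.17 and 3.38 on polymer X (0.79 ± 0.10, SE, adjusted p = 4.52e-05). SEMA6A, a ligand of PLXNA2 and PLXNA4, had 0.317 and 0.342 on TCP and 1.35 and 1.14 on polymer X (0.76 ± 0.09, SE, adjusted p = 3.48e-05). SEMA6B was thus the class 6 gene called, and for SEMA6A and SEMA6C the pseudocount of 1 kept the log2 value under 1 although their means rose 3.78-fold and 2.21-fold. SEMA6D had at most 2 tags in any library.

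Class 5 semaphorins, transmembrane proteins with thrombospondin repeats, were scarcely detected. SEMA5B had 0 tags in both TCP libraries and 82 and 137 tags on polymer X, at least 37.4-fold higher with the floor of 3 tags per library, although its FPKM was only 0.450 and 0.739. SEMA5A had at most 5 tags in any library.

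SEMA7A, the lipid-anchored semaphorin that binds PLXNC1 and integrin beta 1, fell more than any other tested ligand or receptor. Its FPKM was 17.3 and 18.2 on TCP and 3.08 and 3.22 on polymer X, a 5.63-fold decrease with well separated groups (log2 fold change -2.17 ± 0.07, SE, adjusted p = 6.25e-09). The 3 listed SEMA7A transcripts changed by -2.17 to -2.15. Of its receptors, PLXNC1 was below the filter in all libraries, at 0.516 and 0.484 on TCP and 0.854 and 0.739 on polymer X, and the span of PLXNC1 overlaps CEP83 on the opposite strand. ITGB1, the integrin beta 1 gene, had a mean FPKM of 330 on TCP and 130 on polymer X and was called lower.

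**Figure D2:**
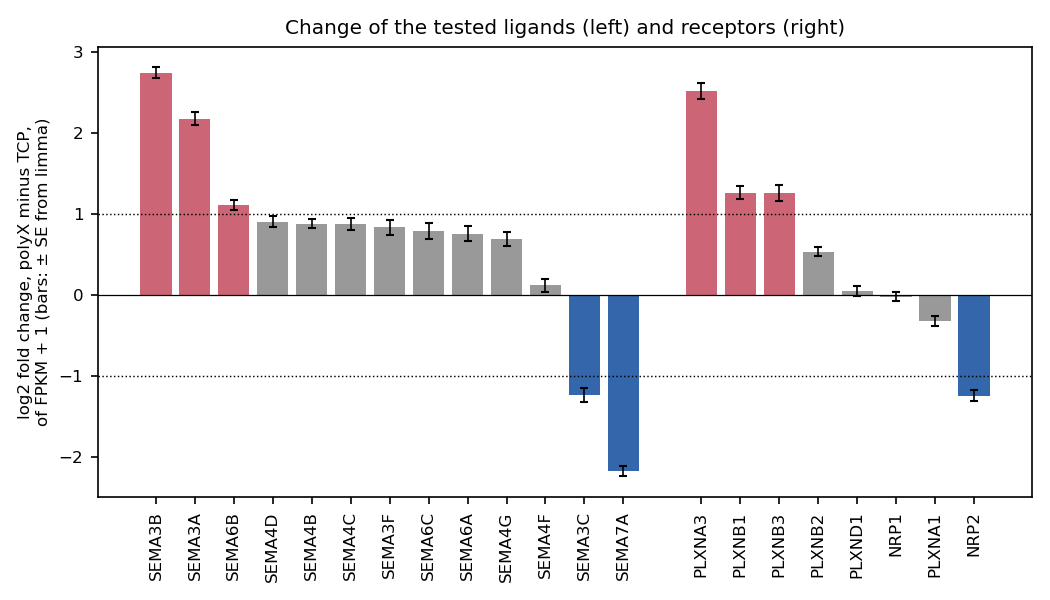
Log2 fold change (polyX minus TCP, of FPKM + 1) of the 13 tested ligands and 8 tested receptors, with error bars of ± SE from limma, red for called higher, blue for called lower, grey for not called and dotted lines at 1 and -1. A run of grey ligands from SEMA4D to SEMA4G lies just under the upper line.

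Of 9 plexins, 6 were tested, 3 were called higher and 0 lower, beside 10.7% and 9.45% of all genes tested. In limma, 1 plexin was below 0 at an unadjusted p under 0.05. PLXNB1 and PLXNB3, both called higher, passed the filter only with the polyX libraries, so they lend no support to this count. PLXNA3, an A-type plexin that transmits class 3 signals, had FPKM values of 2.09 and 2.01 on TCP and 14.7 and 18.3 on polymer X. The mean rose 8.07-fold (log2 fold change 2.52 ± 0.10, SE, adjusted p = 2.10e-08), with a wider spread between the polyX libraries than between the TCP libraries. PLXNA1, another A-type plexin, moved slightly in the opposite direction, from 16.8 and 17.4 on TCP to 13.3 and 13.6 on polymer X (-0.32 ± 0.06, SE, adjusted p = 6.41e-04). PLXNA1 was 8.35 ± 0.44 times PLXNA3 on TCP and 0.823 ± 0.115 times PLXNA3 on polymer X (SD, n = 2). The remaining A-type plexins were low, PLXNA2 at 0.418 and 0.330 on TCP and 0.160 and 0.233 on polymer X, and PLXNA4 at no more than 6 tags in any library.

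The B-type plexins, receptors of class 4 and 5 semaphorins, were all higher on polymer X. PLXNB1, the receptor of SEMA4D, had 0.990 and 1.21 on TCP and 4.10 and 3.94 on polymer X (log2 fold change 1.26 ± 0.08, SE, adjusted p = 7.16e-07). PLXNB3, a receptor of SEMA5A, had 0.342 and 0.400 on TCP and 2.02 and 2.56 on polymer X (1.26 ± 0.10, SE, adjusted p = 2.14e-06). In GENCODE, 20.3% of the bases of a PLXNB3 transcript also lie in exons of SRPK3 on the same strand, which had an FPKM of at most 0.340 in these libraries. PLXNB3 passed the filter through the polyX libraries alone, and it was not called with quantile normalization, where its log2 fold change was 0.80. PLXNB2, the most abundant of all receptors here, had 41.5 and 43.6 on TCP and 61.4 and 62.4 on polymer X, a 1.45-fold rise (0.53 ± 0.06, SE, adjusted p = 1.50e-05). PLXND1, which receives SEMA3E and, with neuropilins, SEMA3C, had 11.7 and 12.5 on TCP and 12.7 and 12.4 on polymer X, and its groups overlapped (0.05 ± 0.06, SE, adjusted p = 0.466).

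The neuropilins, which bind both class 3 semaphorins and vascular endothelial growth factors, behaved unequally. NRP1 had FPKM values of 30.1 and 30.8 on TCP and 30.2 and 29.8 on polymer X (log2 fold change -0.02 ± 0.05, SE, adjusted p = 0.720), and its sign turned with quantile normalization and with scaling to a common median. NRP2 had 28.49 and 28.98 on TCP and 12.3 and 10.8 on polymer X, a 2.49-fold decrease (-1.25 ± 0.07, SE, adjusted p = 2.01e-07). These values set a full-length NRP1 transcript beside a short NRP2 transcript. Read from the longest full-length transcript of each gene, NRP1 was 1.20 ± 0.01 times NRP2 on TCP and 2.06 ± 0.16 times NRP2 on polymer X (SD, n = 2). With the transcripts above, NRP1 was 1.06 and 2.61 times NRP2.

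Both neuropilin genes make full-length receptors and shorter forms that end within an intron and lack the membrane anchor, and the listed transcripts differed in how they changed. The point where the coding sequence of a short form leaves that of the full-length form is printed here to show where these forms part. For NRP2 this point does not mark off the changes. Transcripts of intermediate length, which end beyond the short one, changed by -1.09, beside -1.25 for the short NM_201264 and -0.75 for the longest, NM_201266. Each line gives 30 shared coding bases in lower case and then the first bases of that form alone in capitals, 5′ to 3′ on the gene's strand, read from GRCh38 with GENCODE models. The last shared base is chromosome 10 base 33197650 on the minus strand for NRP1 and chromosome 2 base 205743552 on the plus strand for NRP2.
NRP1 short form: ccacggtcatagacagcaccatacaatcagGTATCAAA
NRP1 full-length form: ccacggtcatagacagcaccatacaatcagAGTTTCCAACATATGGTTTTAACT
NRP2 short form: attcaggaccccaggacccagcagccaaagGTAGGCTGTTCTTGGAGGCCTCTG
NRP2 full-length form: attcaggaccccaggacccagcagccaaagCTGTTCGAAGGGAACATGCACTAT
The short NRP1 form has 8 coding bases of its own after 1924 shared ones, and the short NRP2 form has 24 after 1641 shared ones.

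The NRP1 value above is from a full-length transcript, and all 4 long NRP1 transcripts had a log2 fold change of -0.02. The short transcript NM_001024628 had 32.8 and 33.6 on TCP and 24.1 and 24.9 on polymer X, which is a change of -0.42 on the log2 scale, and the other short one had -0.43. For NRP2 the highest mean belonged to the short transcript NM_201264, with a log2 fold change of -1.25, whereas transcripts of intermediate length had -1.09. The longest NRP2 transcript, NM_201266, had 24.9 and 25.7 on TCP and 15.5 and 13.7 on polymer X, which is a change of -0.75 on the log2 scale. NRP2 was therefore lower on polymer X by each of its 6 transcripts, yet with its longest transcript it did not reach the fold minimum and was not called. The transcripts of intermediate length did pass the fold minimum.

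Transcripts of 1 gene share most of their tags, and short nested forms moved in the same direction in many genes. Among 245 genes with a nested short and long transcript of the same 5′ start, the log2 ratio of short to long was lower on polymer X than on TCP in 92.2%, with a median difference of -0.26 and quartiles of -0.43 and -0.10. The difference was -0.41 for NRP1 and -0.49 for NRP2, with 26.5% and 14.3% of these genes lower still. Among 43 genes whose nested transcripts shared the 3′ end instead, the median difference was 0.0032, and 48.8% of the genes lay below 0. The part of this shift in tags along transcripts in the neuropilin values was not tested.

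**Figure D3:**
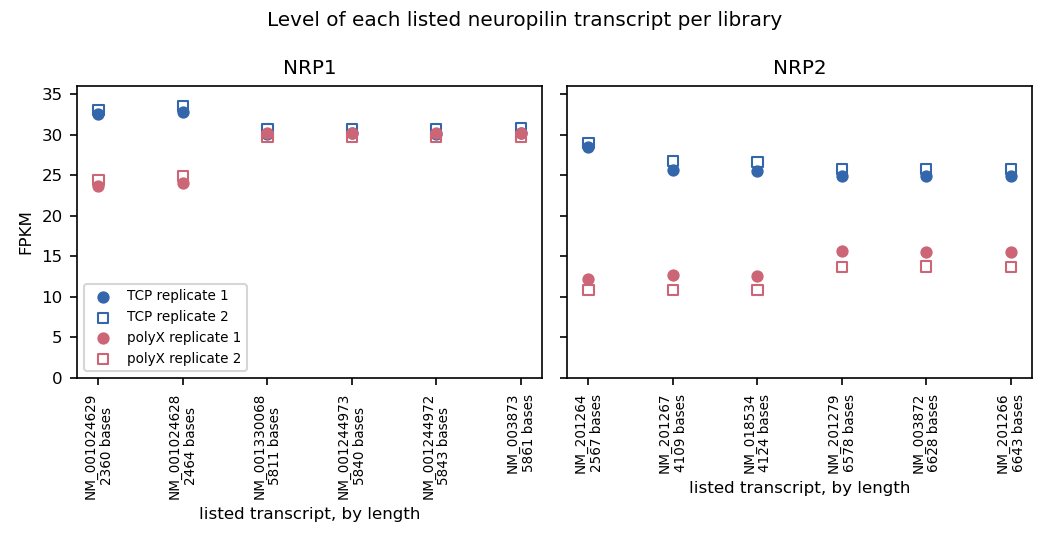
FPKM of each listed NRP1 and NRP2 transcript in each library, ordered by transcript length in bases, with blue for TCP, red for polyX, filled circles for replicate 1 and open squares for replicate 2. The groups separate for the 2 short NRP1 transcripts and coincide for the 4 long ones, while for NRP2 the red marks lie below the blue ones at every length and closer to them for the 3 longest.

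The median change was larger among the ligands than among the receptors. Of 13 tested ligands 3 were called higher and 2 lower, and without a fold minimum 10 were higher and 2 lower. Of 8 tested receptors 3 were called higher and 1 lower, and without a fold minimum 4 were higher and 2 lower. Over all genes tested, 10.7% were called higher and 9.45% lower, and 37.4% and 43.6% without a fold minimum. The median log2 fold change was 0.83 for tested ligands and 0.29 for tested receptors, and 0.68 and 0.051 with all 20 and all 11 genes and no filter. Within the receptors it was 0.89 for the 6 tested plexins and -0.63 for the 2 neuropilins, and 0.26 for all 9 plexins with no filter. The difference between both sides was not tested, since genes are not replicates.

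Summed over all members, which takes in those under the filter, ligand FPKM was 162 ± 4.75 on TCP and 263 ± 4.52 on polymer X (SD, n = 2), 1.62-fold higher. Summed receptor FPKM was 135 ± 3.39 and 153 ± 2.16, 1.13-fold higher, so that the ratio of ligand to receptor transcripts went from 1.20 to 1.72. Within the receptors the plexin sum rose 1.47-fold, from 76.2 ± 2.60 to 112 ± 3.50, while the neuropilin sum went from 59.2 ± 0.79 to 41.5 ± 1.34. The sums of both groups were apart by more than the spread between libraries in each of these comparisons. Receptor and neuropilin sums read NRP2 from its short transcript NM_201264 and NRP1 from a full-length one. With the longest transcript of each gene, the neuropilin fold was 0.80 instead of 0.70. The ligand to receptor ratio then rose 1.35-fold instead of 1.43-fold.

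Among ligand classes, the sums of class 3 (45.9 to 72.6), class 4 (89.5 to 165) and class 6 (9.31 to 21.9) were higher on polymer X and that of class 7 (17.7 to 3.15) was lower. The makeup of the ligand pool shifted accordingly. SEMA4B held 44.7% of summed ligand FPKM on TCP and 51.1% on polymer X. SEMA3C and SEMA7A, second and next in rank on TCP with 21.2% and 10.9%, held 5.35% and 1.20% on polymer X, while SEMA3B went from 2.70% to 13.3% and took the second rank. SEMA3A went from 1.503% to 5.53%. Among receptors, PLXNB2 held the largest share in both groups, 31.4% and 40.4%, NRP2 went from 21.2% to 7.53% and PLXNA3 from 1.51% to 10.8%. The NRP2 share rests on its short transcript NM_201264, with mean FPKM of 28.7 on TCP and 11.5 on polymer X. Its longest transcript, NM_201266, had 25.3 and 14.6, so the fall in its share depends in size on the transcript read.

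**Figure D4:**
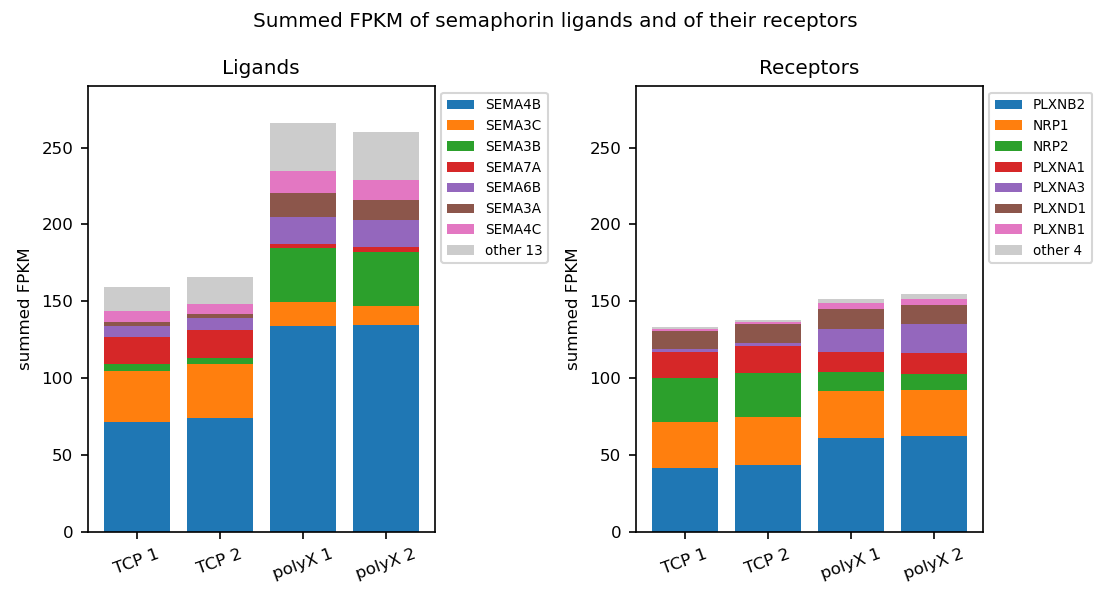
Summed FPKM of the 20 ligands (left) and 11 receptors (right) in each library, stacked by gene, with the 7 genes of the highest mean shown singly in each panel. The ligand bars are taller on polymer X (260 and 266, against 159 and 166 on TCP), with more SEMA4B and SEMA3B and less SEMA3C and SEMA7A, whereas the receptor bars differ less in height.

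Promoter sequences are given for SEMA3B, PLXNA3 and SEMA7A, the genes with the largest changes among those whose promoter was listed, to show what lies before their start sites. The 250 bases before a RefSeq start (GRCh38.p14) are printed 5′ to 3′ on the gene's strand, with capitals for matches, on either strand, to the motifs ACGTG and GCGTG (cores of hypoxia response elements), TTCNNNGAA (STAT), GGAATG (TEAD) and TGANTCA (AP-1). The windows are chr3:50268911-50269160 on the plus strand for SEMA3B, chrX:154458031-154458280 on the plus strand for PLXNA3 and chr15:74433959-74434208 on the minus strand for SEMA7A.
SEMA3B promoter: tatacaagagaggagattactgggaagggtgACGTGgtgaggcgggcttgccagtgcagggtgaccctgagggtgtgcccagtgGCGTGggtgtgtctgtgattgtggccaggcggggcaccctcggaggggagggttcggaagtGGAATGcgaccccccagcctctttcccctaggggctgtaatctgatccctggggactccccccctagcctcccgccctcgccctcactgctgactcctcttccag
PLXNA3 promoter: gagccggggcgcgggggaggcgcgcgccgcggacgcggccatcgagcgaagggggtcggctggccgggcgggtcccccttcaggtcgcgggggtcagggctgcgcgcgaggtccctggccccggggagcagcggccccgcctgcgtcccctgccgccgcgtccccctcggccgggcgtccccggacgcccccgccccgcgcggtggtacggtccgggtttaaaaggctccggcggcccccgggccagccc
SEMA7A promoter: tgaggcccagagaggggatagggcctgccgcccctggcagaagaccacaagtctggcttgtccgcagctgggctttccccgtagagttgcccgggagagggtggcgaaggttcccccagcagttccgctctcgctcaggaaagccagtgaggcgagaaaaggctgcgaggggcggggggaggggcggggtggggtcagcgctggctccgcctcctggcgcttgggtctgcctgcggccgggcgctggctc
The SEMA3B window held 3 matches and the PLXNA3 and SEMA7A windows printed here held 0, with G and C making up 64.0%, 82.8% and 70.0% of their bases. SEMA7A also has an ACGTG match, in promoter bases outside the window printed here. The promoters listed numbered 5 for SEMA3B, 1 for PLXNA3 and 2 for SEMA7A. For each gene, the one printed starts nearest to the transcript its values came from. Which start the cells used was not tested, so the SEMA3B matches are those of 1 of its listed promoters.

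Promoters were listed for 27 of the 31 genes (48 promoters, from 250 bases before to 50 bases after a start), and those of NRP1, SEMA3A, SEMA6A and SEMA6B were not analysed here. ACGTG was found in 20.8% of these promoters and 21.4% of all 35116 promoters, GCGTG in 25% and 36.5%, and GGAATG in 14.6% and 14.0%. TTCNNNGAA was found in 2.08% (in SEMA3E alone) beside 7.66% of all promoters, and TGANTCA in 2.08% (in PLXNC1 alone) beside 7.71%. Such matches describe letters and are not binding sites.

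Genes that act with this system were read from lists of co-receptors, other neuropilin ligands and partners, small GTPases, effectors and proteases. The counts of each list stand beside 10.7% of all genes tested called higher and 9.45% called lower. Of 18 co-receptors and other semaphorin receptors, 10 were tested, 2 were called higher and 1 lower, with a median log2 fold change of 0.47. ERBB2, a kinase that pairs with B-type plexins, had 198 and 206 on TCP and 913 and 860 on polymer X (log2 fold change 2.13 ± 0.07, SE, adjusted p = 6.73e-09). MST1R, a kinase of the same kind of pairing, had means of 1.89 and 4.90 (1.03 ± 0.08, SE), and ITGB1 was the co-receptor called lower (-1.33 ± 0.06, SE).

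Of 10 other neuropilin ligands and partners in the files, 8 were tested, 4 were called higher and 2 lower, with a median of 0.65. VEGFA, the vascular endothelial growth factor that binds both neuropilins, had 66.3 and 65.4 on TCP and 875 and 991 on polymer X (log2 fold change 3.80 ± 0.07, SE, adjusted p = 7.04e-10). Its relatives PGF and VEGFB were also higher, with log2 fold changes of 1.76 ± 0.08 and 1.26 ± 0.06 (SE). FGF2, a growth factor that can bind neuropilin, fell by 2.21 on the log2 scale, and GIPC1, an adaptor of the NRP1 tail, fell by 1.07.

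Of 22 plexin GTPases and their regulators, 18 were tested, 0 were called higher and 1 lower, and the median was -0.27. At an unadjusted p under 0.05 in limma, 3 of them were higher and 11 lower, and the same numbers had an adjusted p under 0.05, beside 37.4% and 43.6% of all genes tested. The gene called lower was RASA1, which switches off Ras (-1.22 ± 0.06, SE). Of 23 collapsin response effectors, 22 were tested, 2 were called higher and 3 lower, beside 10.7% and 9.45% of all genes tested. Their median was -0.41, and 6 were higher and 13 lower with no fold minimum, beside 37.4% and 43.6%. The collapsin response proteins themselves split, since DPYSL4 and CRMP1 rose (1.20 ± 0.09 and 1.11 ± 0.07, SE) while DPYSL3 and DPYSL5 fell (-1.40 ± 0.06 and -1.38 ± 0.06, SE). MICAL2, which oxidizes actin, also fell (-1.30 ± 0.06, SE).

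Of 9 proteases that cut semaphorins, neuropilins or related surface proteins, 8 were tested, 2 were called higher and 1 lower, with a median of -0.15. PCSK6, a furin-like convertase, had 1.32 and 1.51 on TCP and 10.1 and 9.63 on polymer X (log2 fold change 2.17 ± 0.08, SE, adjusted p = 1.24e-08), and PCSK4 rose by 1.53 ± 0.08 (SE) from low levels. ADAMTS1, a secreted metalloprotease, had 171 and 174 on TCP and 5.58 and 6.42 on polymer X (-4.64 ± 0.07, SE, adjusted p = 2.08e-10). These lists were written with earlier results of the data known, and no list was tested as a set.

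**Figure D5:**
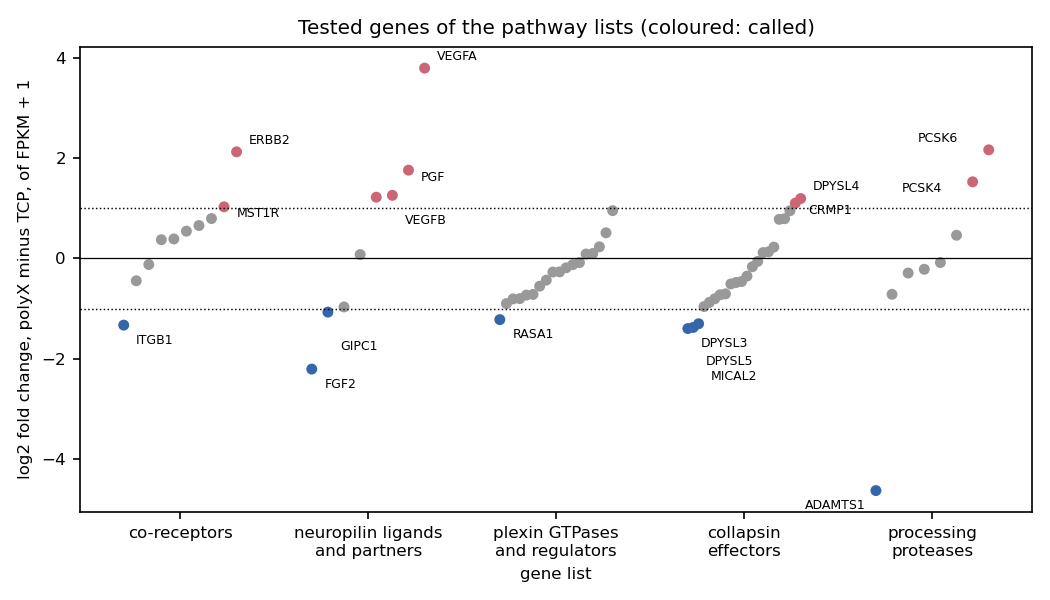
Log2 fold change (polyX minus TCP, of FPKM + 1) of each tested gene of 5 lists, sorted within a list, with red for called higher, blue for called lower, grey for not called and dotted lines at 1 and -1. The extremes are VEGFA at 3.80 and ADAMTS1 at -4.64, and the plexin GTPases and their regulators lie mostly below 0.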

How the data were processed

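SKOV3 mRNA-seq libraries were compared between TCP (2) and polyX (2). The authors deposited FPKM values per RefSeq transcript, which HOMER made per the file headers from tags on exons of both strands on hg19, and the submitters' processing notes also name STAR 2.4.0. The labels name a directional and another library kit, and the counting ignored strand. Values times transcript length gave whole tags (100% of those read, all of at most 6 tags, were within 0.1 of one), and thereby the depth of each library. Limits from tags cover counting error only, and are too narrow where tags are mates of a pair.

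Each symbol was represented by its transcript of highest mean FPKM over the 4 libraries (50078 transcripts, 19475 symbols, 10500 of them with several transcripts). Genes that reached an FPKM of 1 in 2 or more libraries entered the test, which limma 3.58.1 (R 4.3.3) ran on log2(FPKM + 1) (mean-variance trend, Benjamini-Hochberg adjustment over all genes tested). Fold changes on this scale understate those of low genes. The procedure was tested on simulated data. Python 3.11.15, pandas 2.3.3 and matplotlib 3.10.9 were used. Coordinates of members are those of hg19 as deposited, and sequences are from GRCh38.

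All 31 members are named. Of the other lists, the text names per list the 3 called genes with the largest rise and the 3 with the largest fall, and of marker lists the genes reaching an FPKM of 1. CDH1, KRT19, CD3E and genes that overlap members were named after their values were seen, and so were the comparison of nested transcripts and the ratio of full-length neuropilin transcripts chosen. PECAM1 and PTPRC were also named after their values were seen. The members and lists were chosen with earlier results of these data known. The alternatives were a pseudocount of 0.1, quantile normalization, a common median for all libraries, no filter, a filter at a mean FPKM of 5, a replicate block, summed or longest transcripts, no variance trend, other fold minimums and each library left out in turn.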

Additional observations from a re-analysis of the deposited data

How the results depend on the processing

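No direction of a tested member changed under any alternative except that of NRP1, whose log2 fold change became 0.23 with quantile normalization and 0.020 with scaling to a common median. Among the single-gene values, NRP2 went under the fold minimum with summed transcripts (-0.98) or the longest transcript (-0.75), and PLXNB3 did so with quantile normalization (0.80), where SEMA4B passed it (1.23). With a pseudocount of 0.1, SEMA4D, SEMA4G, SEMA6A and SEMA6C also passed it, which took the members called higher from 6 to 10 and the ligands from 3 to 7. With summed transcripts the same counts were 10 and 7. The receptors called lower were 0 with summed transcripts, with the longest transcript and, an alternative chosen after seeing the data, with only NRP2 read from its longest transcript. A mean FPKM of at least 5 left 1 receptor and 702 genes in all called higher, and higher calls made up 42.2% of all calls there against 53.2%. With no fold minimum, 14 members (10 ligands), 4477 genes in all higher and 5212 lower passed, with 2 receptors lower. With a minimum of 2 on the log2 scale, 3 members (1 receptor) were higher, 1 member (a ligand) and 0 receptors were lower, and 281 and 150 genes in all passed.

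The ligand median was 1.01 with a pseudocount of 0.1, 0.68 without the filter and 0.95 with summed transcripts. The receptor median was 0.051 without the filter, 0.015 at a mean FPKM of at least 5, 0.51 with quantile normalization and 0.33 with the common median. The fold of summed ligands was 1.74 with summed transcripts, that of summed neuropilins was 0.80 with the longest transcript, and the ligand to receptor ratio rose 2.02-fold and 1.35-fold with these settings. Leaving out each library in turn gave ligand medians of 0.76 to 0.90 and receptor medians of 0.25 to 0.33, with 6 members higher and 3 lower each time. The lone library of a group was then assumed to vary like the other group. The causes of these changes were not tested.

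Whether the replicate numbers pair the libraries is not settled. Deviations of same-numbered libraries correlated at 0.093 over 11964 genes, but with 2 libraries a group this is a single value and cannot decide it. The fit with a replicate block kept 6 members higher and 3 lower. With 2 libraries a group and 1 cell line, the precision is limited to differences larger than the spread between these libraries, and members with few tags give no usable fold.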
